A study of Arabidopsis thaliana with 15 samples.

Results

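The aquaporin family of Arabidopsis thaliana was followed across 3 root stress treatments, as 35 loci named by their gene identifiers: 13 PIP, 10 TIP, 9 NIP and 3 SIP genes. Of these, 32 were rows of the count table, which lists 24618 genes. Levels of TIP3-2 (AT1G17810), TIP5-1 (AT3G47440) and NIP4-1 (AT5G37810) were not analysed here. These genes entered the promoter search and the sequence comparison alone. The members were chosen by gene family and not by any measured value, although earlier results of these data were known. Isoforms are written here with a hyphen (PIP1-2), where a semicolon is also in use.

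Aquaporins are membrane channels that pass water and, depending on the isoform, small solutes such as hydrogen peroxide, ammonia, boric acid or arsenite. PIPs sit in the plasma membrane, TIPs in the tonoplast that bounds the vacuole, NIPs mostly in the plasma membrane where several carry metalloids rather than water, and SIPs in the endoplasmic reticulum. In roots, PIPs and TIPs carry much of the water that crosses cells, and plants adjust them by transcription, phosphorylation, trafficking and degradation.

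The series holds 15 bulk RNA-seq libraries of the ecotype Col-0 in 5 groups of 3, lettered A, B and C: salt (150 mM NaCl), flg22 (the flagellin peptide perceived by plant immune receptors), mock, mannitol (300 mM, a solute that lowers water potential without salt ions) and a separate mannitol control. Per the study's methods, each library pooled roots of 6-day-old seedlings taken 3 h after treatment, and flg22 was given at 1 μM. The sample labels differ, since they give whole seedling as the tissue, 250 nM flg22 and the times 0 and 3 h. No source says that libraries of a group were separate cultures, so p-values measure the spread between these libraries, which may be partly technical. Mock served as the reference of salt and of flg22, and the mannitol control as that of mannitol. For imaging, the methods describe plates for mannitol and its control, and liquid medium for salt, flg22 and their control. The paper states that imaging used the same treatments, but no medium is given for the libraries themselves. The pair of untreated groups differed from each other, and the experiment, the medium and any other difference in how the plants were handled cannot be told apart there.

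Library totals were 6094503 to 13943645 counts. CPM is the usual read count scaled to a fixed library size, here with TMM factors over all 15 libraries. The smallest level read here as detected was 3 counts, a floor that covers counting error only. By library totals alone, without the TMM factors, this floor corresponds to 0.215 to 0.492 CPM. Within groups, every pair of libraries was further apart than sampling noise allows (chi-square per degree of freedom 2.87 to 11.8). As a check of the tissue, 8 leaf photosynthesis genes summed to 35.4 to 109 CPM in salt, 58.6 to 285 CPM in flg22, 112 to 169 CPM in mock, 85.2 to 110 CPM in mannitol and 83.8 to 107 CPM in its control, while no member of the root marker lists was at 0. Root cell markers moved with the treatments, by the test described below. By that test 3 of the 8 leaf genes fell in salt, 0 passed in flg22 and 1 of the 4 tested rose in mannitol. In the mannitol control 6 of the 8 were lower than in mock. Of all genes, 41.9% passed that test in salt, 52.1% in mannitol and 3.68% in flg22. Of 5 endodermis markers, 4 rose and 1 fell in salt (summed level 488 to 637 CPM, against 333 to 350 CPM in mock), and likewise 4 rose and 1 fell in mannitol (243 to 302 CPM, against 221 to 227 CPM in its control). In flg22 none of the 5 passed, and their sum lay above mock, at 379 to 567 CPM. Of 6 stele markers, 2 rose and 3 fell in salt (377 to 434 CPM, against 561 to 728 CPM in mock), and the same numbers rose and fell in mannitol (405 to 419 CPM, against 519 to 566 CPM in its control). The pair of cortex markers summed to 3.28 to 4.95 CPM in salt, against 13.5 to 16.1 CPM in mock, and to 2.47 to 2.81 CPM in mannitol, against 13.2 to 16.7 CPM in its control. Of these 2 markers, 1 fell in salt and 2 in mannitol. Non-hair epidermis markers summed to 8.07 to 24.7 CPM in salt, against 35.3 to 42.3 CPM in mock, and to 13.3 to 21.1 CPM in mannitol, against 26.3 to 33.4 CPM in its control. Only 1 of these 2 markers fell in salt, and 1 in mannitol. Root hair markers summed to 97.9 to 99.1 CPM in mannitol, against 128 to 173 CPM in its control, and overlapped mock in salt. Of these 5 markers, 1 rose in salt and 2 fell in mannitol. Root cap marker sums overlapped their controls in salt and mannitol, and lay below mock in flg22 (16.0 to 22.2 CPM, against 25.9 to 30.8 CPM). Of 3 root cap markers, 1 rose in salt, 0 passed in mannitol and flg22, and all 3 were lower in the mannitol control than in mock. The part of these markers in the aquaporin results was not tested, and in bulk RNA fewer cells of a type and less RNA per cell cannot be told apart.

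Sequence similarity and overlap bear on how the counts can be read. PIP2-2 (AT2G37170, chromosome 2, 15613368 to 15615022, TAIR10.1) and PIP2-3 (AT2G37180, chromosome 2, 15617635 to 15619155) are neighbouring copies that were 94.8% identical over 858 aligned coding bases, with 45 differences. They shared 143 identical windows of 100 bases, 11.5% of those of PIP2-2 and 12.8% of those of PIP2-3, so the split of reads between them is uncertain. The most divergent stretch of 30 coding bases is shown to make clear how little separates the pair, with the 7 differing bases in capitals (coding bases 552 to 581 of PIP2-2 and 423 to 452 of PIP2-3, RefSeq TAIR10.1).
PIP2-2: CaaAgcCtttcaaagctctTactatgAtCG
PIP2-3: GaaGgcAtttcaaagctctCactatgTtAA
NIP2-1 (AT2G34390, chromosome 2, 14514487 to 14515988, minus strand) overlaps 2 antisense genes, AT2G34380 and AT2G08660. Other annotated genes, foremost AT2G08660, hold 56.2% of its 100-base windows. The libraries kept no strand, so reads from NIP2-1 and an antisense gene cannot be told apart where they overlap. NIP3-1 shared 4.2% of its windows with AT2G21020, SIP2-1 shared 3.7% with AT3G56940 and TIP2-1 shared 1.9% with AT3G16250. No other member that was tested shared a window with another annotated gene, although the loci of NIP6-1 and SIP1-2 touch neighbours on the opposite strand.

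Promoters were searched for 4 short motifs bound by stress transcription factors, from 250 bases before to 50 bases after each annotated start, on both strands. The abscisic acid response core ACGTG was in 6 of 35 members, against 26.7% of 27443 protein-coding promoters, and the G-box CACGTG, which contains that core, in 1 member, against 7.7% of promoters. The dehydration response core CCGAC was in 4 members, against 15% of promoters. The W-box core TTGAC, bound by WRKY factors of the immune response, was in 20 members, against 50.5% of promoters. Stretches of 24 bases upstream of 4 genes are shown, on the strand of the gene with the match in capitals (here always the reverse complement of the core), because these genes behaved differently: PIP2-5 rose in salt, TIP1-1, which also holds the CCGAC core, rose in salt, TIP1-2 fell in mannitol and SIP1-1 passed the test in none of the treatments.
PIP2-5, CCGAC core, chr3:20301626-20301649, plus strand: tgtcaaagaGTCGGctttgagccc
TIP1-1, ACGTG core, chr2:15445223-15445246, plus strand: attatccgcCACGTagattggtcg
TIP1-2, CCGAC core, chr3:9724013-9724036, minus strand: aagtctgctGTCGGgaatatggtt
SIP1-1, ACGTG core, chr3:1074306-1074329, minus strand: gtttaagtcCACGTataatttcaa
Among the 4 members that salt raised at least 2-fold, PIP2-5 held the CCGAC and TTGAC cores, PIP1-4 held the TTGAC core, TIP2-3 held the ACGTG core downstream of its start, and PIP1-2 held none of the 4 motifs. The members that salt lowered at least 2-fold (PIP1-5, NIP2-1, NIP3-1 and SIP1-2) each held the TTGAC core and no other motif. PIP1-3, not called in salt, held the CCGAC and TTGAC cores as PIP2-5 did. A match describes letters in this window and is no evidence of binding.

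Members were called by the quasi-likelihood test of edgeR, with p adjusted after Benjamini-Hochberg over all genes tested (here edgeR adjusted p). A member rose or fell where this p was under 0.05, and was a DEG (differentially expressed gene) where the log2 fold change was also at least 1 in size. Values after a log2 fold change are ± its standard error. In salt, 28 members had enough counts for a test, and 8 rose, 8 fell and 12 did not pass. Over all 18484 genes tested, 22.5% rose and 19.4% fell, so the share of aquaporins that passed (57.1%) stands beside 41.9% of all genes. By the DEG rule 4 members were up and 4 down, against 9.59% up and 7.84% down of all genes. In 9 members every salt library was above every mock library and in 9 every one was below, where 25.9% and 28.7% of all genes separated in these ways. The median log2 fold change was -0.04 over the members and -0.01 over all genes. PIP1-2, PIP1-4, PIP2-5 and TIP2-3 were the up DEGs, and PIP1-5, NIP2-1, NIP3-1 and SIP1-2 the down DEGs. PIP2-5 met the count filter mainly through its salt libraries, and NIP2-1 and NIP3-1 mainly through their mock libraries, where each was high. These DEG counts therefore depend in part on the filter. With at least 10 counts required in every library, PIP2-5, NIP2-1 and NIP3-1 were not tested, and 2 down DEGs were left.

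**Figure D1:**
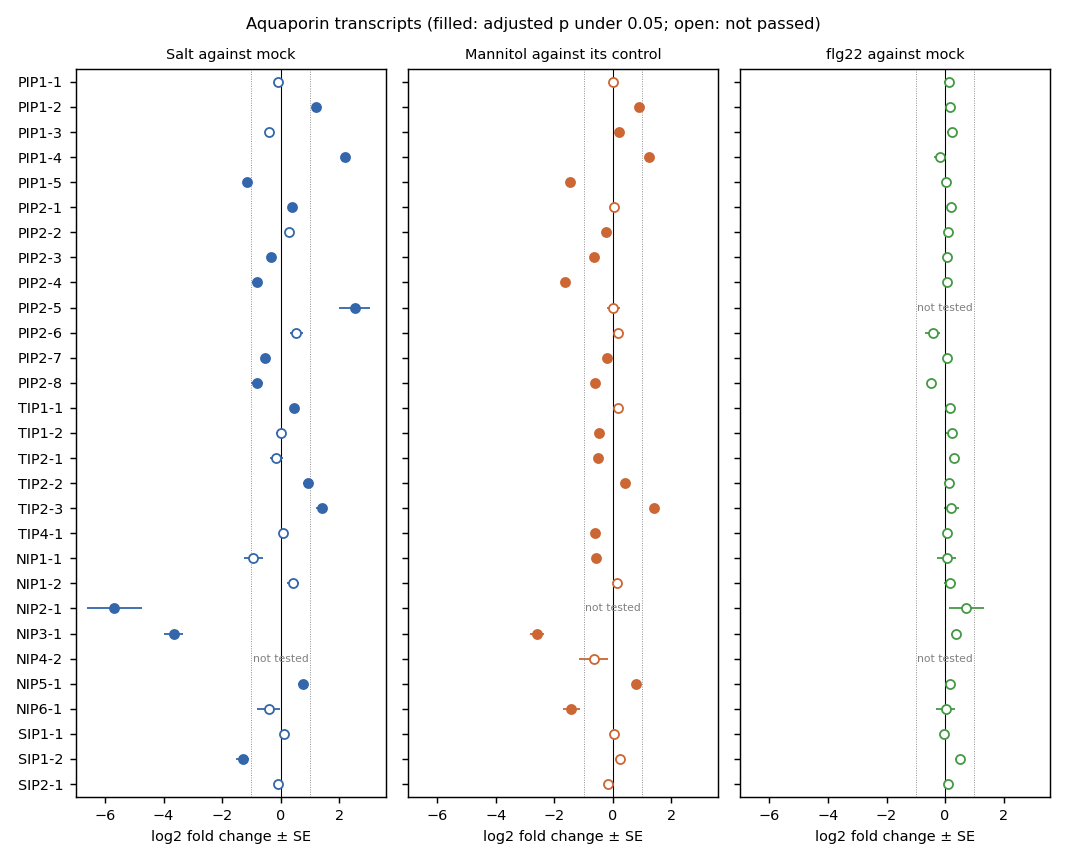
Log2 fold changes (x axis, points with standard errors) of the 29 aquaporins tested in at least 1 treatment, one row per gene, for salt against mock, mannitol against its control and flg22 against mock. Filled points passed at an adjusted p under 0.05 and open points did not. Dotted lines mark a log2 fold change of 1 in either direction, and no point is filled in the flg22 panel.

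The PIP1 subgroup, whose members are thought to reach the plasma membrane largely together with PIP2 partners, held the most abundant transcript that salt raised. PIP1-2 (AT2G45960, chromosome 2, 18910081 to 18911982), a contributor to root water transport, had 3702, 3705 and 3084 CPM in the salt libraries, against 1622, 1420 and 1583 CPM in mock. Every salt library lay above every mock library, with a log2 fold change of 1.21 ± 0.11 (edgeR adjusted p = 2.55e-05). The flg22 libraries held 1609, 1753 and 1875 CPM of PIP1-2, overlapping mock.

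PIP1-4 (AT4G00430, chromosome 4, 185285 to 187680), a channel for water and hydrogen peroxide, had 317, 303 and 290.4 CPM in salt, against 68.9, 69.7 and 64.2 CPM in mock. The groups lay far apart, and the log2 fold change was 2.20 ± 0.09 (edgeR adjusted p = 2.35e-07). In mannitol the gene had 314, 333 and 297 CPM, against 124, 132 and 143 CPM in the mannitol control, again without overlap (log2 fold change 1.24 ± 0.08, edgeR adjusted p = 2.17e-08). The treated libraries of both experiments thus reached similar CPM over untreated levels that differed.

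PIP1-5 (AT4G23400, chromosome 4, 12220641 to 12222468) moved the other way. It had 87.6, 93.7 and 86.6 CPM in salt, against 220.1, 157 and 229 CPM in mock, and 44.6, 42.6 and 30.9 CPM in mannitol, against 115, 102 and 106 CPM in its control. Treated libraries were below their controls throughout, by log2 fold changes of -1.15 ± 0.14 in salt and -1.46 ± 0.12 in mannitol (edgeR adjusted p = 0.000164 and 2.66e-07). PIP1-1 (AT3G61430, chromosome 3, 22733243 to 22735394), the second most abundant PIP1 by mean CPM, had 968, 1087 and 853 CPM in salt, against 1035, 959 and 1151 CPM in mock. Its mannitol libraries held 461, 429.8 and 425 CPM, against 472, 408 and 416 CPM in the mannitol control. The groups overlapped in both comparisons, and the log2 fold changes were -0.08 ± 0.12 and 0.02 ± 0.08 (edgeR adjusted p = 0.614 and 0.873). PIP1-3 did not pass in salt (log2 fold change -0.39 ± 0.16, edgeR adjusted p = 0.075), but did pass as lower without mock B (0.00401), in 1 fit of all 15 libraries (0.00926) and in DESeq2's Wald test (0.0484).

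Among the 8 PIP2 genes, the more active water channels of the plasma membrane, 2 rose and 4 fell in salt. PIP2-1 (AT3G53420, chromosome 3, 19803473 to 19805730), a major root and guard cell water channel, had 1681, 1713 and 1447 CPM in salt, against 1380, 1066 and 1341 CPM in mock. The salt libraries were all higher, by a log2 fold change of 0.39 ± 0.12 (edgeR adjusted p = 0.0289). The call rested on single libraries: it did not pass without salt A, salt B, mock B or mock C (edgeR adjusted p = 0.0966, 0.147, 0.0844 and 0.078), nor with upper-quartile normalization (0.141).

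PIP2-2, a root water channel, had 1406, 1541 and 1233 CPM in salt, against 1207, 1074 and 1261 CPM in mock, which overlapped (log2 fold change 0.27 ± 0.11, edgeR adjusted p = 0.077, and 0.00951 without salt C). Its near copy PIP2-3 fell by 0.32 on the log2 scale in salt (edgeR adjusted p = 0.0404), a call that did not pass without salt A, salt C, mock A or mock C (0.0762 to 0.109). PIP2-4 (AT5G60660, chromosome 5, 24375368 to 24377206), a root PIP that also passes hydrogen peroxide, had 65.4, 62.8 and 62.3 CPM in salt, against 139, 87.1 and 116 CPM in mock. All salt libraries were below mock, by a log2 fold change of -0.81 ± 0.15 (edgeR adjusted p = 0.00252).

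PIP2-5 (AT3G54820, chromosome 3, 20301759 to 20304309) was a rare transcript with 5.50, 2.62 and 2.65 CPM in salt, against 0.157, 1.08 and 0.626 CPM in mock. The groups did not overlap, but mock library A held 1 count of it. The log2 fold change was 2.52 ± 0.52 (edgeR adjusted p = 0.00377). In the mannitol experiment the gene was near the salt level whether treated or not, with 3.4, 3.54 and 4.95 CPM in mannitol, against 4.29, 3.62 and 4.01 CPM in its control (log2 fold change 0.01 ± 0.22, edgeR adjusted p = 0.98). PIP2-7 and PIP2-8 fell by 0.52 and 0.81 on the log2 scale in salt (edgeR adjusted p = 0.00402 and 0.00773), and PIP2-6, at 5.03 to 5.99 CPM in salt against 3.6 to 4.8 CPM in mock, did not pass (edgeR adjusted p = 0.0714, and 0.0482 without mock B).

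Of the 6 TIPs tested, 3 rose in salt and none fell. TIP1-1 (AT2G36830, chromosome 2, 15445294 to 15446621), a leading vacuolar water channel of roots, had 1976, 2074 and 1797 CPM in salt, against 1512, 1323 and 1488 CPM in mock. The salt libraries were all higher, by a log2 fold change of 0.47 ± 0.10 (edgeR adjusted p = 0.0045). TIP2-2 rose as well (log2 fold change 0.92 ± 0.14, edgeR adjusted p = 0.000786). TIP2-3 (AT5G47450, chromosome 5, 19248249 to 19249622), which carries water and ammonia, had 717, 737 and 529.6 CPM in salt, against 311, 196 and 259 CPM in mock. It was the TIP with the largest salt response (log2 fold change 1.41 ± 0.19, edgeR adjusted p = 0.000672).

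TIP1-2 (AT3G26520, chromosome 3, 9722443 to 9723904), the vacuolar channel closest in name and abundance to TIP1-1, had 1543, 1687 and 1530 CPM in salt, against 1874, 1221 and 1758 CPM in mock. The salt libraries lay inside the mock range (log2 fold change 0.01 ± 0.15, edgeR adjusted p = 0.984). TIP2-1 and TIP4-1 did not pass in salt (edgeR adjusted p = 0.638 and 0.697), although TIP2-1 did so without salt C (0.0475).

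The NIPs held both the steepest losses in salt and a rise. NIP5-1 (AT4G10380, chromosome 4, 6431161 to 6435396), the boric acid channel of root boron uptake, had 149.8, 153 and 102 CPM in salt, against 71.6, 89.4 and 82.1 CPM in mock. The salt libraries were all higher, by a log2 fold change of 0.77 ± 0.17 (edgeR adjusted p = 0.00585). NIP3-1 (AT1G31885, chromosome 1, 11450315 to 11452068), a metalloid channel linked to arsenite uptake, had 1.40, 2.51 and 0.576 CPM in salt, against 18.8, 22.2 and 18.7 CPM in mock. All salt libraries were lower, by a log2 fold change of -3.66 ± 0.33 (edgeR adjusted p = 3.81e-05). Its flg22 libraries, at 19.5, 29.2 and 28.8 CPM, overlapped mock.

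NIP2-1, known as a lactic acid channel of oxygen-starved roots, had 0, 1 and 0 counts in the salt libraries, against 8, 11 and 57 counts in mock. Scaled by library size, the salt level was 0.0126 of the mock level, with a 95% counting interval of 0.000315 to 0.0723 that leaves out the spread between libraries. The fitted log2 fold change of -5.68 ± 0.95 (edgeR adjusted p = 0.00115) depends on the prior count that the fit adds, and, as above, an antisense gene may share these reads. NIP1-1 (AT4G19030, chromosome 4, 10421521 to 10423508), which passes arsenite and hydrogen peroxide, had 31.0, 36.1 and 69.8 CPM in salt, against 106, 83.0 and 79.2 CPM in mock. All salt libraries were lower, but the loss did not pass (log2 fold change -0.94 ± 0.32, edgeR adjusted p = 0.0614). It did pass without salt C (9.23e-05), in DESeq2's Wald test (0.00127) and in 1 fit of all 15 libraries (0.0321). NIP6-1, a boric acid channel known from shoot nodes, had 0.936, 1.99 and 2.77 CPM in salt, against 2.82, 2.94 and 2.19 CPM in mock (edgeR adjusted p = 0.411).

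SIP1-1 (AT3G04090, chromosome 3, 1071984 to 1074244) made up most of the SIP counts and had 119.9, 129.5 and 115 CPM in salt, against 117, 122 and 109.6 CPM in mock. SIP2-1 (AT3G56950, chromosome 3, 21078297 to 21079925) had 37.1, 35.7 and 38.0 CPM in salt, against 36.3, 42.4 and 42.5 CPM in mock. Both sets of libraries overlapped (log2 fold changes 0.10 ± 0.09 and -0.10 ± 0.10, edgeR adjusted p = 0.425 and 0.451). SIP1-2 (AT5G18290, chromosome 5, 6055028 to 6058368) fell, with 4.09, 5.55 and 5.76 CPM in salt, against 16.9, 9.91 and 12.2 CPM in mock (log2 fold change -1.30 ± 0.23, edgeR adjusted p = 0.00152).

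**Figure D2:**
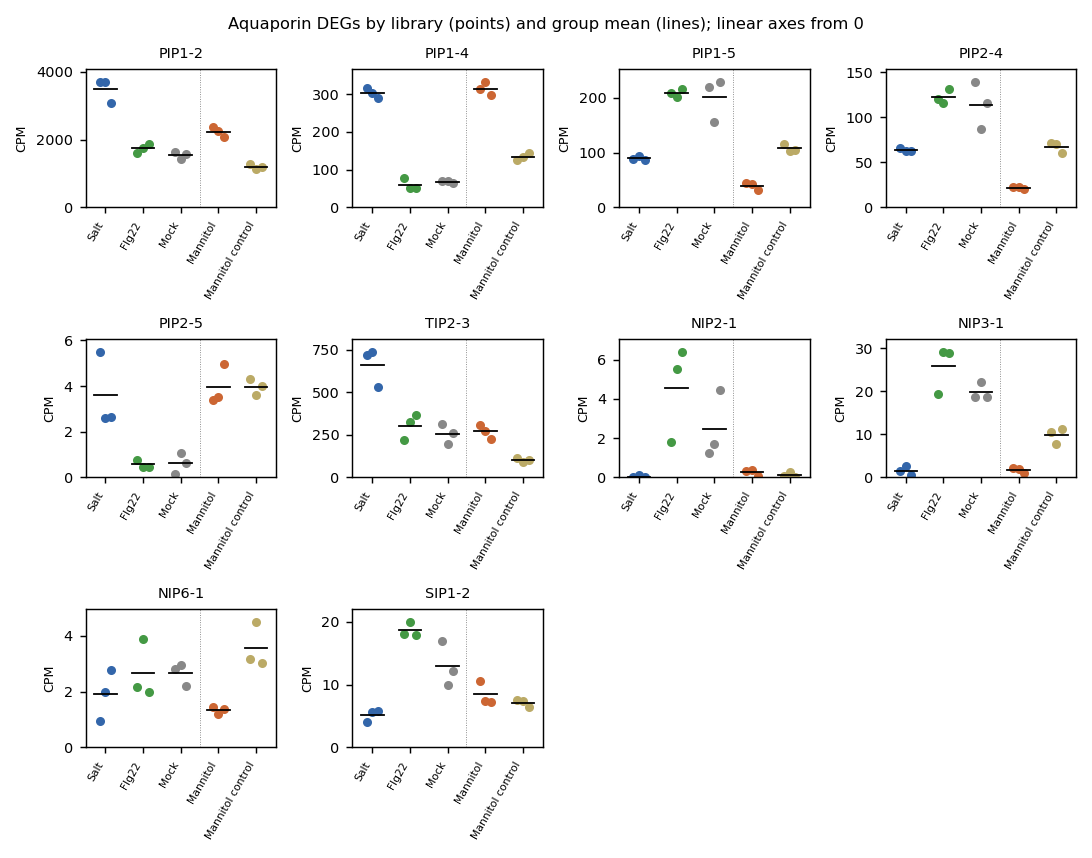
CPM (y axis, linear from 0) of the 10 aquaporins that were DEGs in a treatment, with one point per library and a line at each group mean, in the order salt, flg22, mock, then mannitol and mannitol control behind the dotted line. PIP1-2, PIP1-4 and TIP2-3 lie above their controls in both osmotic treatments and PIP1-5, PIP2-4 and NIP3-1 below them, while, of these treatments, PIP2-5, NIP2-1 and SIP1-2 separate from the control in salt alone and NIP6-1 in mannitol alone.

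Mannitol tested the osmotic component without salt. Again 28 members were tested: 6 rose, 12 fell and 10 did not pass. Of all 18939 genes tested, 26% rose and 26% fell, together 52.1%, beside 64.3% of the aquaporins. The DEGs were 2 up (PIP1-4 and TIP2-3) and 4 down (PIP1-5, PIP2-4, NIP3-1 and NIP6-1), where 8.98% of all genes were up and 7.46% down. In 7 members every mannitol library was above every control library and in 13 every one was below, where 30.2% and 30.5% of all genes separated in these ways. The members' median log2 fold change was -0.08, against -0.02 over all genes.

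PIP1-2 rose with 2362, 2239 and 2078 CPM in mannitol, against 1279, 1117 and 1175 CPM in the mannitol control (log2 fold change 0.90 ± 0.08, edgeR adjusted p = 9.16e-07). TIP2-3 had 308, 275 and 224 CPM in mannitol, against 112, 89.1 and 103 CPM in its control (log2 fold change 1.40 ± 0.12, edgeR adjusted p = 5.13e-07). Neither gene's groups overlapped. NIP5-1 followed with 123, 109 and 114 CPM in mannitol, against 67.9, 65.7 and 67.8 CPM in its control (log2 fold change 0.78 ± 0.07, edgeR adjusted p = 8.74e-07). TIP2-2 rose by a log2 fold change of 0.43 ± 0.12 (edgeR adjusted p = 0.00793). PIP1-3 rose by 0.21 ± 0.08 (edgeR adjusted p = 0.0382) and did not pass without mannitol B or without control B or C (0.136 to 0.19), with no count filter (0.0512), in 1 fit of all 15 libraries (0.168) or with upper-quartile normalization (log2 fold change 0.11, 0.251).

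No PIP2 rose in mannitol and 5 of 8 fell. PIP2-4 had 23, 22.3 and 20.1 CPM in mannitol, against 71.6, 70.1 and 60.5 CPM in the mannitol control. The separation was wide and the libraries tight (log2 fold change -1.64 ± 0.10, edgeR adjusted p = 8.43e-09). PIP2-2 had 545, 487 and 469 CPM in mannitol, against 633, 566 and 584 CPM in its control (log2 fold change -0.25 ± 0.08, edgeR adjusted p = 0.0175), a call lost without mannitol B, mannitol C or control A (0.0551, 0.0603 and 0.0939). PIP2-3 fell by 0.66 and PIP2-8 by 0.60 on the log2 scale (edgeR adjusted p = 4.82e-06 and 0.00256). PIP2-7 fell by 0.21 (edgeR adjusted p = 0.0451), which did not pass without mannitol A or C or control A or B (0.0517 to 0.17), nor in DESeq2's Wald test (0.0566), with DESeq2's size factors (0.0513), in 1 fit of all 15 libraries (0.0822) or with the replicate letter as a block (0.0568). PIP2-1 straddled its control, with 1151, 1147 and 968 CPM in mannitol, against 1093, 1060 and 1043 CPM in the mannitol control (edgeR adjusted p = 0.795). Mannitol A and B lay above the control range and C below it.

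Among TIPs, 3 fell in mannitol. The difference of the salt and mannitol responses did not pass for any of these 3 (edgeR adjusted p = 0.0785 for TIP1-2, 0.434 for TIP2-1 and 0.0647 for TIP4-1). That of TIP4-1 did pass without salt B or mannitol B (edgeR adjusted p = 0.0244 and 0.026) and in 1 fit of all 15 libraries (0.047). It also passed in DESeq2's Wald test (adjusted p = 0.033), and that of TIP1-2 passed without mock A (edgeR adjusted p = 0.0321). TIP1-2 had 637, 543 and 553 CPM in mannitol, against 806, 782 and 798 CPM in its control, with no overlap (log2 fold change -0.47 ± 0.08, edgeR adjusted p = 0.000227). TIP2-1 and TIP4-1, vacuolar channels for water and, in the case of TIP2-1, ammonia, fell by 0.50 and 0.61 on the log2 scale (edgeR adjusted p = 0.000737 and 0.00198). TIP1-1 had 1318, 1218 and 1106 CPM in mannitol, against 1089, 1075 and 1026 CPM in its control. Its mannitol libraries were all higher, yet the difference did not pass (log2 fold change 0.19 ± 0.08, edgeR adjusted p = 0.0671, and 0.0228 without mannitol C).

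Of the NIPs, 3 fell in mannitol. NIP3-1 had 2.06, 1.81 and 1.05 CPM, against 10.5, 7.64 and 11.2 CPM in the mannitol control (log2 fold change -2.59 ± 0.25, edgeR adjusted p = 1.5e-06). NIP6-1 (AT1G80760, chromosome 1, 30350539 to 30352208) had 1.44, 1.18 and 1.38 CPM in mannitol, against 3.15, 4.50 and 3.03 CPM in its control (log2 fold change -1.42 ± 0.28, edgeR adjusted p = 0.000831). Both separated fully at low levels. NIP1-1 had 34.9, 54.0 and 49.7 CPM in mannitol, against 70.4, 72.2 and 66.7 CPM in its control (log2 fold change -0.59 ± 0.13, edgeR adjusted p = 0.00273), a loss that did not pass in 1 fit of all 15 libraries (0.156). NIP2-1 was too rare for a test, with 8 counts in mannitol against 5 in its control, a ratio of 1.95 with a 95% counting interval of 0.561 to 7.56.

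No SIP passed in mannitol. SIP1-1 had 140.4, 118 and 117 CPM in mannitol, against 119, 120.1 and 124 CPM in its control, which overlapped. SIP2-1 had 38.6, 37.5 and 39.1 CPM in mannitol, against 40.4, 42.5 and 45.3 CPM in its control, all lower. SIP1-2 had 10.6, 7.44 and 7.30 CPM in mannitol, against 7.60, 7.30 and 6.43 CPM in its control. The log2 fold changes of the 3 genes lay between -0.16 and 0.24 (edgeR adjusted p = 0.672 for SIP1-1, 0.126 for SIP2-1 and 0.287 for SIP1-2).

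Flg22 tested a biotic signal. Of 27 members tested, 0 passed edgeR's test and 0 passed DESeq2's Wald test, where 3.68% of all 18230 genes passed in edgeR (2.54% higher and 1.14% lower) and 0.823% were up and 0.0329% down DEGs. Every flg22 library was above every mock library in 1 member and below in 1, where 14.1% and 10.2% of all genes separated in these ways. At an unadjusted p under 0.05 there were 3 members: PIP2-8, NIP3-1 and SIP1-2. PIP2-8 had 8.92, 9.54 and 8.49 CPM in flg22, against 13.9, 11.5 and 11.4 CPM in mock, all lower (log2 fold change -0.47 ± 0.15, edgeR adjusted p = 0.125). SIP1-2 had 18.1, 20.02 and 17.9 CPM in flg22, against 16.9, 9.91 and 12.2 CPM in mock, all higher (log2 fold change 0.50 ± 0.18, edgeR adjusted p = 0.168). NIP3-1 differed by 0.36 ± 0.16 (edgeR adjusted p = 0.28).

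The fitted change was positive for 23 members and negative for 4, with a median of 0.12 on the log2 scale, against -0.01 over all genes. Counts taken as a share of the library link the members, so these signs are not independent of each other. For abundant genes the approximate 95% interval was narrow. It ran from -0.01 to 0.31 for PIP1-2, from -0.06 to 0.38 for TIP1-1 and from -0.07 to 0.45 for PIP2-1. This interval uses the normal distribution and is therefore narrower than the edgeR test itself would give. It was wide for NIP2-1, from -0.43 to 1.90, with 14, 47 and 55 counts in flg22 against 8, 11 and 57 in mock. PIP1-4 differed by -0.19 ± 0.17 (edgeR adjusted p = 0.66), and without flg22 A it passed as lower (0.0302). PIP2-5 was not tested in this comparison, at 0.764, 0.471 and 0.465 CPM in flg22.

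The salt and mannitol responses use separate controls. Of the 27 members tested in both, 5 rose in both: PIP1-2, PIP1-4, TIP2-2, TIP2-3 and NIP5-1. These are 5 of the 8 that rose in salt and of the 6 that rose in mannitol. Another 6 fell in both (PIP1-5, PIP2-3, PIP2-4, PIP2-7, PIP2-8 and NIP3-1), out of 7 in salt and 12 in mannitol, and 0 were called in opposite directions. As shares of the 27, 18.5% rose and 22.2% fell in both treatments, where of all 18228 genes tested in both 15.5% rose in both, 12.2% fell in both and 1.45% and 1.11% were called in opposite directions. Whether the responses differed was tested as an interaction over 12 libraries. Of 29 members, 4 were higher in the salt response and 3 lower, where 11.5% of all 19363 genes were higher and 8% lower. By the DEG rule 1 was higher (PIP2-5) and 2 lower (NIP2-1 and SIP1-2), against 5.23% and 4.06% of all genes.

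PIP1-4, PIP2-2, PIP2-4 and PIP2-5 had the higher salt response. The difference was 0.96 ± 0.11 for PIP1-4, which rose more in salt, and 0.82 ± 0.19 for PIP2-4, which fell less in salt (edgeR adjusted p = 2.86e-05 and 0.00643). For PIP2-5 it was 2.52 ± 0.55 (edgeR adjusted p = 0.00431) and went with the untreated groups, whose levels were unequal as given above. For PIP2-2 it was 0.52 ± 0.14 (edgeR adjusted p = 0.013), lost without salt B or mannitol C (0.0588 and 0.0546).

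PIP1-3, NIP2-1 and SIP1-2 had the lower salt response. SIP1-2 fell in salt and not in mannitol, and the difference was -1.54 ± 0.30 (edgeR adjusted p = 0.00211). PIP1-3 differed by -0.61 ± 0.18 (edgeR adjusted p = 0.0263), but in fits without salt C, mock A, mock C, mannitol A, mannitol B, control B or control C this did not pass (0.0508 to 0.0756). For NIP2-1 the fitted -6.65 ± 1.64 (edgeR adjusted p = 0.00946) rests on 1 count in salt, 8 in mannitol and 5 in its control. In TIP2-3 and NIP5-1 the responses were nearly equal, with differences of -0.00 (approximate 95% interval, as for flg22, -0.48 to 0.47) and -0.01 (-0.36 to 0.33). These still allow a moderate difference either way.

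**Figure D3:**
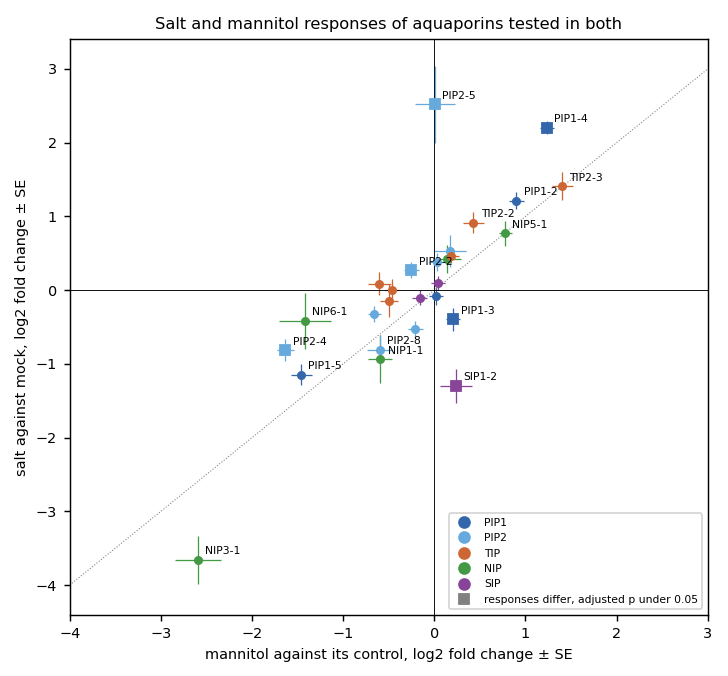
Salt response (y axis, log2 fold change against mock) plotted against mannitol response (x axis, log2 fold change against its control) for the 27 aquaporins tested in both, coloured by subgroup, with standard errors. Squares mark the 6 of these genes whose responses differed at an adjusted p under 0.05, the dotted line marks equal responses, and NIP3-1 lies lowest on both axes.

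Salt and flg22 share the mock libraries, so they were also compared directly. Of 28 members, 7 were higher in salt and 7 lower, where 42.5% of all 18432 genes differed (21.7% higher and 20.8% lower). By the DEG rule 4 were higher and 4 lower, against 9.38% and 9.34% of all genes. The higher ones were PIP1-2, PIP1-4, PIP2-5, PIP2-6, TIP2-2, TIP2-3 and NIP5-1, with log2 differences of 0.56 to 2.66, and the DEGs among them were PIP1-2, PIP1-4, PIP2-5 and TIP2-3. The lower ones were PIP1-3, PIP1-5, PIP2-4, PIP2-7, NIP2-1, NIP3-1 and SIP1-2, with PIP1-5, NIP2-1, NIP3-1 and SIP1-2 as DEGs. As in salt against mock, PIP2-5, NIP2-1 and NIP3-1 met the count filter mainly through the group where each was high. NIP5-1, at 0.56 ± 0.18 (edgeR adjusted p = 0.0412), did not pass without salt A or B or any single flg22 library (0.0515 to 0.129), nor with no count filter (0.0596) or with the replicate letter as a block (0.0666). PIP2-6 did not pass with libraries thinned to the smallest total (0.0989).

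The untreated groups differed as well. Between the mannitol control and mock, 4 of 29 members were higher in the mannitol control and 16 lower, where 20.9% and 21.6% of all 18927 genes were (42.5% together). DEGs were 2 higher and 5 lower, against 6.6% and 6.79% of all genes. PIP2-5 (log2 difference 2.65 ± 0.39), PIP2-6 (1.04 ± 0.19), PIP1-4 (0.98 ± 0.08) and TIP4-1 (0.36 ± 0.07) were higher in the mannitol control (edgeR adjusted p = 0.00025, 0.000997, 1.86e-06 and 0.0026), although TIP4-1 did not pass in 1 fit of all 15 libraries (0.0796). TIP2-3 (-1.33 ± 0.18), PIP1-1 (-1.28 ± 0.08), TIP1-2 (-1.02 ± 0.16) and NIP3-1 (-1.02 ± 0.15) were lower (edgeR adjusted p = 0.00199, 4.1e-07, 0.00268 and 0.000308). NIP2-1 had 5 counts in the mannitol control against 76 in mock, a ratio of 0.0419 with a 95% counting interval of 0.0132 to 0.102. Levels in the mannitol and salt experiments can therefore be set beside each other only with this gap in view.

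Summed over subgroups, the transcripts of a few abundant genes decide the total. The whole family summed to 14902 ± 1292 CPM in salt, 12971 ± 1653 CPM in flg22 and 11441 ± 1335 CPM in mock (SD, n = 3 each), and to 8861 ± 615 CPM in mannitol and 7655 ± 268 CPM in its control (SD, n = 3 each). Salt libraries were all above mock, and mannitol libraries all above their control. Scaled by library totals alone, the mannitol libraries overlapped their control (7968 to 8709, against 7857 to 8342), while salt still lay above mock. Since the members were chosen together, these sums carry no test.

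PIP1 sums were 5480 ± 535 CPM in salt, against 3694 ± 398 CPM in mock, and 3585 ± 202 CPM in mannitol, against 2352 ± 142 CPM in its control (SD, n = 3 each). Treated libraries were above their controls in both experiments. PIP2 sums were 3613 ± 291 CPM in salt, against 3311 ± 364 CPM in mock, which overlapped, and 2142 ± 125 CPM in mannitol, against 2395 ± 95 CPM in its control, all lower (SD, n = 3 each). TIP sums were 5451 ± 463 CPM in salt, against 4063 ± 590 CPM in mock, all higher, and 2787 ± 302 CPM in mannitol, against 2577 ± 44.8 CPM in its control, which overlapped (SD, n = 3 each).

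NIP sums were small, at 195 ± 8.46 CPM in salt, against 204 ± 8.2 CPM in mock, and 175 ± 3.05 CPM in mannitol, against 160.4 ± 0.982 CPM in its control (SD, n = 3 each). The log2 ratio for NIPs in mannitol was 0.13 here, but -0.01 when scaled by library totals alone and -0.02 per kb, so its direction is not settled. In salt the NIP sums overlapped mock here, but lay wholly below it by totals alone and per kb. SIP sums were 163 ± 6.56 CPM in salt, against 170 ± 5.01 CPM in mock, and 172 ± 15.3 CPM in mannitol, against 171 ± 4.28 CPM in its control (SD, n = 3 each), with the mannitol ratio of 0.01 turning to -0.13 when scaled by totals alone. SIP sums then lay wholly below their controls in salt and in mannitol. In flg22 the sums were 4185 ± 453 CPM for PIP1, 3678 ± 465 CPM for PIP2, 4700 ± 772 CPM for TIP, 230 ± 16.9 CPM for NIP and 178 ± 5.27 CPM for SIP (SD, n = 3 each), of which only those of the NIPs lay wholly above mock, and these overlapped mock when scaled by totals alone or per kb.

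**Figure D4:**
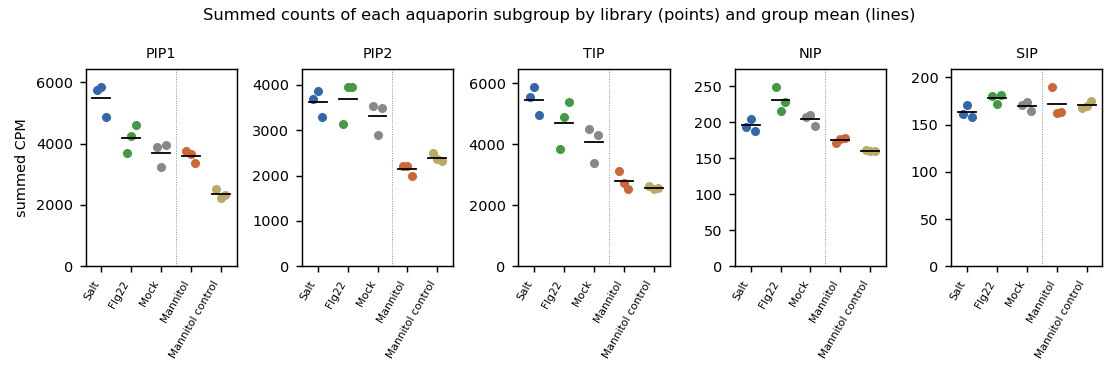
Summed CPM (y axis, linear from 0) of the PIP1, PIP2, TIP, NIP and SIP genes in each library (points) with group means (lines), for salt, flg22 and mock, then mannitol and mannitol control behind the dotted line. PIP1 sums of the salt and mannitol libraries lie above those of their controls, and PIP2 sums of the mannitol libraries lie below.

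PIP1-2 alone made up 22.9% to 24.2% of all aquaporin counts in salt, against 13.1% to 14.3% in mock, and 25.03% to 25.31% in mannitol, against 14.9% to 16.1% in its control. In both experiments its share was thus wholly above that of the control. TIP1-2 made up 10.1% to 11.4% in salt, against 12.3% to 15.2% in mock, and 6.08% to 6.75% in mannitol, against 10.1% to 10.6% in its control. TIP1-1 changed little as a share, at 12.9% to 13.4% in salt, against 12.3% to 13.4% in mock, and 13.5% to 14.0% in mannitol, against 13.6% to 14.4% in its control.

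Levels of different genes were compared per kilobase of exon. In salt the order was led by PIP1-2 (2190 CPM per kb), TIP1-1 (1576 CPM per kb) and TIP1-2 (1230 CPM per kb). In mock it was led by TIP1-2 (1254 CPM per kb), TIP1-1 (1165 CPM per kb) and PIP1-2 (965 CPM per kb). The range of the mock libraries for TIP1-2 overlapped that of TIP1-1 and that of PIP1-2. In mannitol PIP1-2 (1394 CPM per kb) stood above TIP1-1 (982 CPM per kb) and PIP2-1 (692 CPM per kb), and in the mannitol control TIP1-1 (860 CPM per kb) stood above PIP1-2 (745 CPM per kb) and PIP2-1 (677 CPM per kb). By group mean PIP1-2 was thus the most abundant aquaporin transcript per kb in both osmotic treatments and in neither untreated group. In flg22 it ranked behind TIP1-2 (1492 CPM per kb) and TIP1-1 (1322 CPM per kb), at 1093 CPM per kb, although its flg22 libraries overlapped those of TIP1-1.

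At the other end, TIP1-3, known from pollen, had 9 counts in all 15 libraries together, TIP3-1, known from seeds, had 1 count, and NIP7-1, known from anthers, had 23 counts. These 3 were tested in no comparison. NIP4-2, also known from pollen, had 137 counts in all and was tested only where mannitol control libraries took part. It did not pass there (log2 fold change -0.66 ± 0.48 in mannitol, edgeR adjusted p = 0.269). NIP1-2, at 8.80 to 11.6 CPM in salt, against 6.42 to 9.14 CPM in mock, passed in no treatment (edgeR adjusted p = 0.107 in salt and 0.441 in mannitol).

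Regulators of aquaporins gave a further view, as a list of 14 genes for the kinases, E3 ligases, SNAREs and other proteins known to phosphorylate, sort or degrade PIPs, together with XND1, a transcription factor linked to root water transport. In salt 5 rose and 3 fell of 14 tested (57.1%, beside 41.9% of all genes), in mannitol 7 rose and 1 fell (57.1%, beside 52.1%), and in flg22 4 of 12 rose and 0 fell (33.3%, beside 3.68%). The list was drawn up with earlier results of these data known and holds a gene of flg22 perception. Its shares are therefore no test against all genes. The 4 in flg22 were SYP121, a SNARE of PIP delivery (log2 fold change 0.75 ± 0.10), BAK1, the co-receptor of flg22 perception (0.44 ± 0.07), the receptor kinase QSK1 (0.41 ± 0.08) and the calcium-dependent kinase CPK7 (0.41 ± 0.09), with edgeR adjusted p = 0.00653, 0.0156, 0.0203 and 0.0365.

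TSPO, a stress-induced membrane protein that binds PIP2-7 for degradation by autophagy, had 176, 151 and 106 CPM in salt, against 0, 0.310 and 0.235 CPM in mock, all at or under the floor of 3 counts. In mannitol it had 343, 363 and 263 CPM, against 11.1, 5.12 and 6.51 CPM in its control (log2 fold change 5.43 ± 0.27, edgeR adjusted p = 3.19e-06). It was near absent from mock and present at a low level in the mannitol control. OST1, the abscisic acid-activated kinase that phosphorylates PIP2-1, had 41.5, 34.0 and 29.6 CPM in salt, against 10.03, 10.07 and 8.38 CPM in mock, and 64.4, 57.4 and 55.4 CPM in mannitol, against 21.3, 21.3 and 21.6 CPM in its control. It rose in both (log2 fold changes 1.93 ± 0.16 and 1.46 ± 0.09, edgeR adjusted p = 1.35e-05 and 1.1e-08).

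The E3 ligase RMA1, which acts on PIP2-1, was called in opposite directions from unequal untreated levels. It had 34.4, 31.8 and 18.0 CPM in salt, against 79.1, 43.5 and 75.4 CPM in mock, and 24, 17.6 and 22.7 CPM in mannitol, against 12.9, 13.3 and 10.1 CPM in its control. The salt response was -1.20 ± 0.32 and the mannitol response 0.81 ± 0.14 (edgeR adjusted p = 0.0248 and 0.000335), and they differed by -2.03 ± 0.38 (edgeR adjusted p = 0.00362). Its relative RMA2 had 5.38, 3.46 and 2.88 CPM in salt, against 39.2, 20.6 and 36.0 CPM in mock (log2 fold change -3.00 ± 0.31, edgeR adjusted p = 0.000171), and 5.97, 6.17 and 5.51 CPM in mannitol, against 6.06, 6.28 and 4.77 CPM in its control, which overlapped. For both ligases every mock library lay above every mannitol control library, while the salt and mannitol levels of RMA1 overlapped. The part of this gap in the responses was not tested, and alternative runs are given here for aquaporins only. UBC32, an E2 enzyme of the same degradation route, rose in mannitol with 109, 86.9 and 80.3 CPM, against 43.6, 42.1 and 43.6 CPM in its control (log2 fold change 1.09 ± 0.10, edgeR adjusted p = 7.95e-07).

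Boron export was set beside the boric acid channels. BOR4, which exports excess boron, had 26.6, 24.1 and 21.0 CPM in salt, against 3.13, 7.28 and 4.54 CPM in mock, and 44.5, 52.2 and 36.2 CPM in mannitol, against 14.6, 13.8 and 14.0 CPM in its control. It rose in both, by 2.30 ± 0.24 and 1.64 ± 0.13 on the log2 scale (edgeR adjusted p = 7.47e-05 and 1.54e-07). BOR1, which loads boron into the xylem, did not pass in either treatment (edgeR adjusted p = 0.122 and 0.243), and BOR2 rose in salt and fell in mannitol (log2 fold changes 0.81 ± 0.13 and -0.45 ± 0.11, edgeR adjusted p = 0.00104 and 0.00457). Of the boric acid channels, NIP5-1 thus rose in both treatments and NIP6-1 fell in mannitol.

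**Figure D5:**
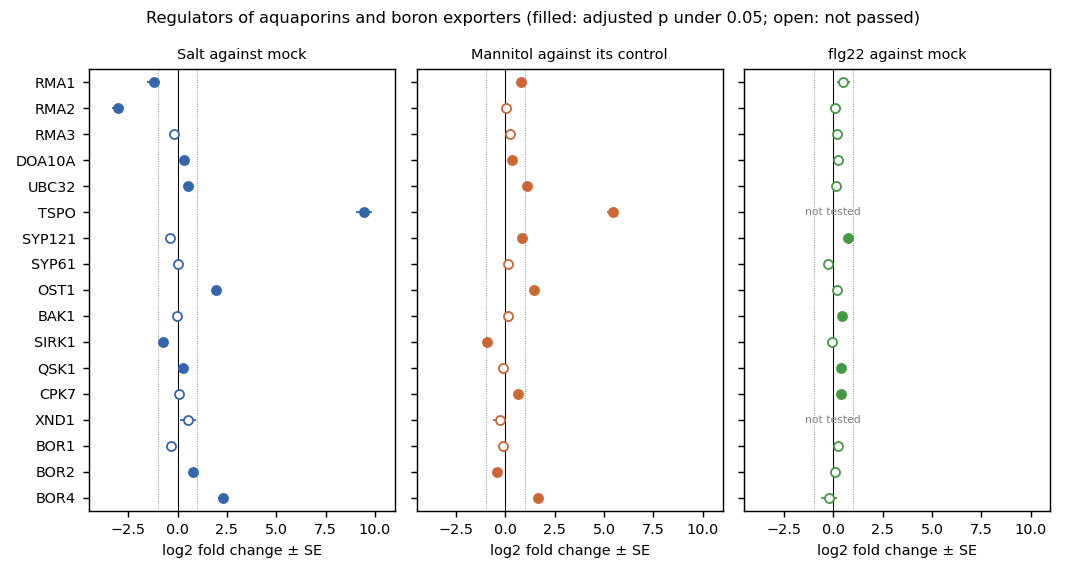
Log2 fold changes (x axis, points with standard errors) of 14 aquaporin regulators and 3 boron exporters, one row per gene, in salt against mock, mannitol against its control and flg22 against mock. Filled points passed at an adjusted p under 0.05. TSPO lies farthest right in salt and mannitol, and RMA1 is filled on opposite sides of 0.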

How the data were processed

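The deposited file is a table of whole-number read counts per gene for 15 libraries, which the authors did not normalize. According to the methods and the submitters' processing notes, the authors ran FastQC, Trimmomatic for trimming, mapping to Araport11, Picard for duplicate removal and HTSeq for counting. Libraries were nonstranded and polyadenylated. Tool versions, the aligner and counting options are not given in the sources used here. All 15 columns were used (0 unused), matched to samples by name. The mannitol control columns carry another name for an untreated group, matched because the labels hold only 2 untreated groups. Counts of genes with overlapping or near-identical neighbours are uncertain.

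Each comparison was a fit of 6 libraries in edgeR (4.0.16, under R 4.3.3). Genes passed filterByExpr at a minimum count of 10, libraries were scaled by TMM, and the robust quasi-likelihood test was adjusted after Benjamini-Hochberg, and the difference of the salt and mannitol responses was an interaction over 12 libraries. The methods name DESeq2 for the study's own calls, and DESeq2 1.42.0 was run as an alternative. CPM were scaled by TMM factors over all 15 libraries. Gene models, lengths and promoter sequence came from the RefSeq annotation of TAIR10.1, in which all 35 loci were matched by identifier. Coding sequences were aligned pairwise, and identity was counted over aligned bases.

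The members, the gene lists and the tests were chosen with earlier results of these data known, and the lists of regulators, boron exporters and cell markers come from general knowledge. Values of every library are printed for members that were DEGs in a treatment and for the 2 members of highest mean CPM in PIP1, PIP2, TIP, NIP and SIP, and, beyond that rule, for a few members chosen after their values were seen, such as PIP2-8 in flg22. Alternatives for scaling were the size factors of DESeq2 and the upper quartile. Those for the filter were none at all, or a minimum of 10 counts per library. The others were the Wald test of DESeq2, a block for the replicate letter, 1 fit over all 15 libraries, thinning to the smallest total, and leaving out each library in turn. Sums were also scaled by library totals alone and per kb of exon. Versions were Python 3.11.15, numpy 2.4.6, pandas 2.3.3, scipy 1.17.1 and matplotlib 3.10.9.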

Additional observations from a re-analysis of the deposited data

Results flagged for a closer look

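In 7 aquaporins the salt response differed from the mannitol response by the interaction test in edgeR. The salt response minus the mannitol response was 0.959 for PIP1-4, 0.519 for PIP2-2, 0.817 for PIP2-4 and 2.517 for PIP2-5, and -0.608 for PIP1-3, -6.653 for NIP2-1 and -1.537 for SIP1-2, on the log2 scale. PIP1-4 rose in both treatments and more so in salt, and PIP2-4 fell in both and more so in mannitol. PIP1-3 and PIP2-2 had responses of opposite sign, each called in mannitol alone. PIP2-5, NIP2-1 and SIP1-2 were called in salt alone, NIP2-1 having been too rare for a test in mannitol. In each of the 7 the untreated groups also differed, with a log2 difference between mannitol control and mock of 0.98 for PIP1-4, -0.99 for PIP2-2, -0.76 for PIP2-4, 2.65 for PIP2-5, -0.77 for PIP1-3, -4.33 for NIP2-1 and -0.86 for SIP1-2. The untreated groups differed in 69.0% of the 29 aquaporins tested and in 42.5% of all genes, so unequal baselines are not particular to these 7. The part of the unequal baselines in the differences was not tested.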

How the results depend on the processing

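No aquaporin call turned its direction under any alternative run. Requiring at least 10 counts in every library left 2 down DEGs in salt, 0 up and 1 down in the difference of responses, 2 down in salt against flg22 and 1 up in the mannitol control against mock, since rare members were then not tested. Thinned libraries left 1 down DEG in the difference of responses and 2 in the mannitol control against mock. Leaving out 1 library gave, in salt, 7 to 9 members that rose, 7 to 9 that fell, 4 to 5 up DEGs and 4 to 5 down DEGs. In mannitol it gave 5 to 7 that rose, 10 to 12 that fell, 2 up DEGs and 4 down DEGs. In flg22 it gave 0 that rose and 0 to 1 that fell. In the difference of responses it gave 3 to 8 higher (8 without salt C), 2 to 4 lower, 1 to 2 up DEGs (2 without salt A or without control A) and 2 to 3 down DEGs. In salt against flg22 it gave 6 to 8 higher, 7 to 10 lower, 3 to 4 up DEGs and 4 down DEGs. In the mannitol control against mock it gave 4 higher, 13 to 18 lower, 1 to 3 up DEGs (1 without mock A or without mock C) and 4 to 6 down DEGs.

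Scaled by library totals alone, the log2 ratios of sums were -0.196 (NIP) and -0.187 (SIP) in salt, 0.468 (PIP1), -0.301 (PIP2), -0.012 (NIP), -0.132 (SIP) and 0.07 (family) in mannitol and -0.007 (SIP) in flg22. Per kb, the NIP ratio was -0.236 in salt and -0.018 in mannitol. The cause of these shifts was not tested. Upper-quartile normalization moved the median of all genes to -0.16 in salt and -0.12 in mannitol (log2), so small changes are relative to that.

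The replicate letters did not pair the libraries: same-letter deviations correlated by 0.0233 on average in salt, 0.035 in mannitol and -0.16 in flg22, with some pair below 0.1 in each. With the replicate block, 8 members rose and 7 fell in salt, 6 rose and 11 fell in mannitol, and 0 passed in flg22. The block ended the salt call of PIP2-3 (edgeR adjusted p = 0.0653). Thinning ended that of PIP2-8 (0.0658), and the 15-library fit ended the mannitol call of TIP2-1 (0.0555). Rare members such as PIP2-5, NIP2-1 and NIP6-1 are limited by depth.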
